A study of Homo sapiens with 7 samples.

Results

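The STAT and IRF transcription factors considered here are the 9 genes STAT2, STAT3, IRF1, IRF2, IRF3, IRF5, IRF7, IRF8 and IRF9, chosen by gene symbol from the 11581 genes of the deposited expression table and followed through all 7 libraries. The libraries hold poly(A) RNA of MOLM13, an established human acute myeloid leukemia cell line, taken 6 days after the cells were transduced with a single guide RNA (sgRNA) for CRISPR editing. In 3 control libraries the guide was sgRosa, labelled non-targeting. In 4 libraries it was 1 of 2 independent guides against ZFP36L2, with 2 libraries per guide. They are called guide 3 and guide 5 after the deposited column names, and which of these is which numbered guide of the labels is not known. The labels name 1 cell line for all groups, mention no selection of edited clones, and are silent on whether replicates came from different cultures. The p-values therefore speak only of the variation among these samples, which may be technical.

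STAT proteins wait in the cytoplasm until JAK kinases at an activated cytokine receptor phosphorylate them, and then enter the nucleus as dimers. STAT2 and IRF9 are subunits of the complex ISGF3, which binds the interferon-stimulated response element (ISRE) of genes induced by type I interferon. IRF3, IRF5 and IRF7 act earlier, downstream of receptors for microbial RNA, DNA and cell wall products, and switch on interferon and cytokine genes. IRF1 and IRF2 bind the same kind of element, IRF1 mostly as an activator and IRF2 mostly as a repressor, and IRF8 is a lineage factor of monocytes and dendritic cells that works with PU.1. ZFP36L2, the gene targeted, encodes an mRNA decay factor that recognises AU-rich elements in 3′ untranslated regions (UTRs).

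Sequence elements tied to these pathways were looked for first, because the STAT and IRF genes are known as targets of the same pathways they serve. RefSeq promoters on GRCh38.p14, running from 250 bases before to 50 bases after the annotated start, were matched by symbol for 6 of the 9 genes (STAT2, STAT3, IRF1, IRF5, IRF8 and IRF9, not IRF2, IRF3 and IRF7). The IRF8 windows, chr16:85902580-85902879 and chr16:85902765-85903064, lie inside the gene, whose annotated span starts at base 85898803. The region at that start was not searched. The element bound by STAT dimers (GAS), written TTCNNNGAA and searched on both strands, occurred once in the IRF1 promoter, at bases -124 to -116 relative to the start, and once in that of IRF9, at bases -63 to -55. Of 35116 promoters of the same length 7.66% held it. The core of the ISRE (GAAA, any 2 bases, GAAA), searched on both strands, had no match in these windows for the 6 genes. It was present in 3.57% of all promoters and in 3.17% of those for genes of the table. The promoters of 3 genes that rose in the data below are printed, 2 with a GAS (in capitals) and 1 without: IRF1 at chr5:132490724-132491023, IRF9 at chr14:24161015-24161314 and STAT2 at chr12:56360058-56360357, the first and the last on the minus strand.
IRF1 promoter: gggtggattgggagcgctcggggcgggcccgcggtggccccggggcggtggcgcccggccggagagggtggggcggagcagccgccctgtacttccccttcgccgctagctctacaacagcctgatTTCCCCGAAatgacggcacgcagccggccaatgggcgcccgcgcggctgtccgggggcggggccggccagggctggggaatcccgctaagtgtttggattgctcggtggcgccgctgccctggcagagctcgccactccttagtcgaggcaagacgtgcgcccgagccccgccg
IRF9 promoter: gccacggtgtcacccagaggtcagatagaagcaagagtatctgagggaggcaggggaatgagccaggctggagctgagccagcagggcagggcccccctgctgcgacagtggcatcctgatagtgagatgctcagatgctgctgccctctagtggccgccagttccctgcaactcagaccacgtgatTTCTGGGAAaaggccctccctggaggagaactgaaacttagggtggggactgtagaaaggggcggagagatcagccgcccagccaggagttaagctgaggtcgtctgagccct
STAT2 promoter: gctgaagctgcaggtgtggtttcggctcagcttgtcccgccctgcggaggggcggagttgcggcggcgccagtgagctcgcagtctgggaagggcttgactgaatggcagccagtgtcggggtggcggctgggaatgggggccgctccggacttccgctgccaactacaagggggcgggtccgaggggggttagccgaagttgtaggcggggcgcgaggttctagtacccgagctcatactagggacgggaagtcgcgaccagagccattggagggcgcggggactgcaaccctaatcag

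The heptamer TATTTAT, the core of the AU-rich sites that ZFP36 family proteins are known to bind, was searched in the 3′ UTR of the main GENCODE 29 transcript of each gene. It occurred once each in IRF1, IRF5 and IRF8 and was absent from those of STAT2, STAT3, IRF2, IRF3, IRF7 and IRF9. Of 10621 genes of the table with a 3′ UTR, 32.3% held it. The sites lie at base 670 of 2342 of the IRF1 3′ UTR (chr5:132483275-132483281, minus strand), base 971 of 1217 in IRF5 (chr7:128949789-128949795, plus strand) and base 1249 of 1327 in IRF8 (chr16:85922531-85922537, plus strand), all on GRCh38. They are shown with 8 bases on either side and the heptamer in capitals, because these 3 genes differ in how their mRNA behaved below.
IRF1 site: tttgcattTATTTATacagtgcc
IRF5 site: atttaataTATTTATtatattgt
IRF8 site: tgaatgaaTATTTATttttgtat

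Values are CPM (read counts scaled to a common library size), recovered from the deposited FPKM, and changes are differences of log2(CPM + 0.5) ± SE with a Benjamini-Hochberg adjusted p from limma over 11398 genes. Reads in listed genes numbered 16907955 to 25164359 in the controls and 28087405 to 38806678 in the guide libraries, so that 1 read stood for 0.0261 to 0.0540 CPM. ZFP36L2 itself lay at 311 to 337 CPM in controls and at 690 to 1353 CPM in the libraries labelled knockout, a log2 change of 1.52 ± 0.16 (limma, adjusted p = 1.3e-05). Editing can disrupt a protein without reducing its mRNA, so this level does not check the label, and all directions below are those of the libraries labelled knockout. All 12 of 12 myeloid leukemia markers were among the genes tested, with a summed level of 5449 to 8223 CPM in controls and 11337 to 20658 CPM in guide libraries (6 rose, 3 fell). Most of that sum is the lysozyme gene LYZ, at 5088 ± 1548 CPM (SD, n = 3) in controls and 13196 ± 4182 CPM (SD, n = 4) in guide libraries. Of 8 T and NK cell markers 2, CD3D and NKG7, were tested, and their sum was 38.0 to 52.1 CPM in controls and 78.4 to 104 CPM in guide libraries. They moved in opposite directions, with CD3D falling from a mean of 15.4 to 6.93 CPM and NKG7 rising from 30.6 to 88.1 CPM. Of 7 epithelial and fibroblast markers 1 was tested, at 1.08 to 3.64 and 1.07 to 2.01 CPM, and 0 of 6 B cell and 0 of 6 erythroid and megakaryocyte markers were. In bulk RNA, fewer cells of a type and less RNA per cell cannot be told apart.

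Of the 9 genes, 5 rose with both guides against control (STAT2, IRF1, IRF5, IRF7 and IRF9), 0 fell and 4 did not pass the threshold of an adjusted p of 0.05. The unadjusted p of limma was under 0.05 for 6, which adds IRF3, also higher. Among all genes tested 20.8% were called higher and 20.6% lower, and the median log2 change was 0.50 for the 9 genes against -0.05 for all. In 6 of the 9 (the 5 and STAT3) all 4 guide libraries lay above every control, which held for 19.7% of all genes. With guide 3 alone 5 rose (STAT2, IRF3, IRF5, IRF7 and IRF9), beside 21.1% of all genes higher and 18.9% lower. With guide 5 alone 4 rose (STAT2, IRF1, IRF7 and IRF9), beside 12.1% higher and 7.67% lower. Both comparisons share the 3 control libraries. None of the 9 differed between guide 5 and guide 3 by limma's adjusted p, and 0 had an unadjusted p under 0.05, where 0.298% of all genes were called higher with guide 5 and 0.0526% lower. Without control replicate 2, the count for both guides was 8, with STAT3, IRF2 and IRF3 added. It was 5 without control replicate 3. Without control replicate 1 or any 1 guide library it was 4, with IRF5 lost.

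**Figure D1:**
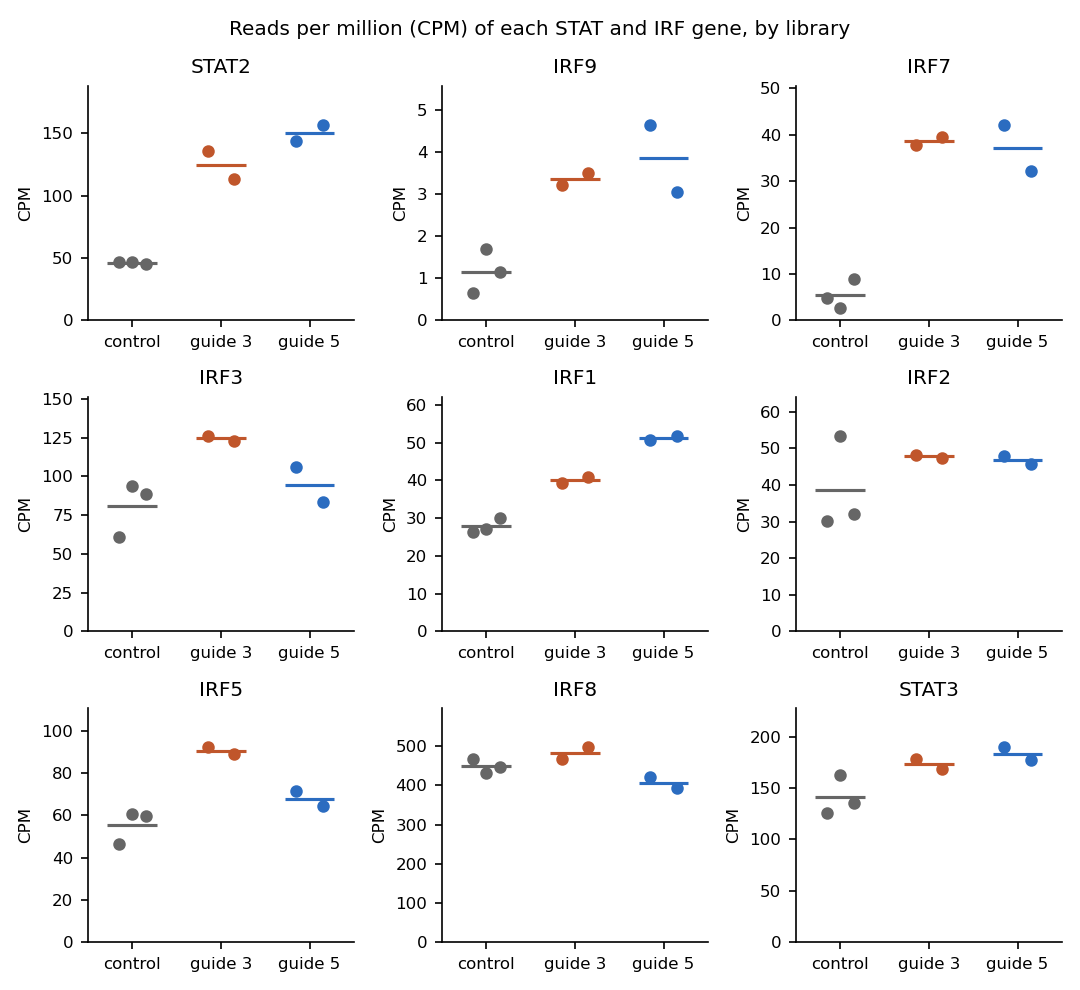
Level of each gene in CPM (linear axis from 0, scaled per gene) in 3 control, 2 guide 3 and 2 guide 5 libraries; points are libraries and lines are group means. In STAT2, IRF7 and IRF9 the points of both guides stand well above the controls, and in IRF8 the groups overlap.

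STAT2 and IRF9, the subunits of ISGF3, both rose. STAT2 (ENSG00000170581; chr12:56341597-56360155, minus strand, GRCh38) measured 46.9, 46.5 and 44.8 CPM in control replicates 1 to 3, 136 and 114 CPM with guide 3, and 144 and 157 CPM with guide 5. The 3 controls lay close together and every guide library was far above them. The means were 46.1 ± 1.08 (SD, n = 3) and 138 ± 18 CPM (SD, n = 4), a 2.99-fold difference. On the log2 scale the change was 1.56 ± 0.16 (limma, adjusted p = 1.0e-05), with 1.42 for guide 3 and 1.70 for guide 5. STAT2 was called in all 24 of 24 settings tried, with log2 changes of 1.40 to 1.62.

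IRF9 (ENSG00000213928; chr14:24161053-24166565, plus strand), the DNA-binding subunit of ISGF3, had the lowest level of the 9 genes. It measured 0.648, 1.68 and 1.15 CPM in controls, from 12, 36 and 28 reads. With guide 3 it measured 3.20 and 3.50 CPM and with guide 5 it measured 4.63 and 3.05 CPM, from 89 to 173 reads. All 4 guide libraries were above every control, although the controls themselves spread widely. Mean levels were 1.16 ± 0.518 (SD, n = 3) and 3.60 ± 0.715 CPM (SD, n = 4), 3.10-fold apart. The log2 change was 1.34 ± 0.27 (limma, adjusted p = 0.0023), smaller than the plain ratio because 0.5 was added, and ranged from 0.70 to 1.68 over 22 settings that tested the gene, with a call in all 22. Every exon base of the main IRF9 transcript, 1838 of 1838, is shared on the same strand with the readthrough gene AL136295.5, so reads of the 2 genes can be confused and the IRF9 level is uncertain.

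The proportion of STAT2 to IRF9 within a library overlapped between the groups, with the IRF9 level uncertain as said above. The log2 ratio of STAT2 to IRF9 was 5.37, 4.43 and 4.78 in controls, 5.20 and 4.83 with guide 3, and 4.82 and 5.47 with guide 5. The difference of means was 0.22 (exact permutation test over 35 splits, two-sided, p = 0.514, adjusted over 3 ratios 0.514). With quantile normalization it was 0.73 (exact permutation, adjusted p = 0.0429), and with 0.1 CPM added it was -0.056.

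IRF7, the inducible amplifier of type I interferon production, had the largest change among the 9 genes. IRF7 (ENSG00000185507; chr11:612553-615999, minus strand) measured 4.91, 2.57 and 8.96 CPM in controls, 37.7 and 39.6 CPM with guide 3, and 42.1 and 32.3 CPM with guide 5. The lowest guide library was above the highest control by several times, and relative to their mean the controls differed among themselves more than the guide libraries did. Means were 5.48 ± 3.23 (SD, n = 3) and 37.9 ± 4.16 CPM (SD, n = 4), a 6.92-fold difference. On the log2 scale it changed by 2.83 ± 0.31 (limma, adjusted p = 1.7e-05), with 2.86 for guide 3 and 2.79 for guide 5.

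GC content moved with the change over all genes, and IRF7 is GC-rich. The main IRF7 transcript has 66.8% GC, in the 10% of genes with the highest GC, of which 54.9% rose and 0.439% fell. In the 10% with the lowest, 3.68% rose and 49.7% fell. With a GC and length correction the log2 change of IRF7 was 2.03 (limma, adjusted p = 0.00012), the smallest of 24 settings, all of which called it.

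IRF3, the constitutive factor that starts interferon production, did not pass the threshold with both guides together. IRF3 (ENSG00000126456; chr19:49659569-49665875, minus strand) measured 60.8, 93.6 and 88.7 CPM in controls, 126 and 123 CPM with guide 3, and 106 and 83.1 CPM with guide 5. Both guide 3 libraries were above every control, while guide 5 replicate 2 lay among them. The log2 change was 0.44 ± 0.19 for both guides (limma, adjusted p = 0.080), 0.64 for guide 3 (limma, adjusted p = 0.040) and 0.23 for guide 5 (limma, adjusted p = 0.48). The difference between guides was -0.41 with a 95% interval of -0.95 to 0.13 (limma, adjusted p = 0.59). Without control replicate 2 the change for both guides was 0.55 (limma, adjusted p = 0.019). Quantile normalization, scaling to a common sum of CPM and median of ratios gave 0.44 to 0.50 (limma, adjusted p = 0.023 to 0.040), past the threshold. With the GC and length correction the change for both guides was -0.10 (limma, adjusted p = 0.61), and the IRF3 transcript has 61.5% GC.

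On the opposite strand, BCL2L12 shares 734 bases, or 19.3%, of the IRF3 exons. BCL2L12 measured 15.3 to 36.1 CPM in controls and 33.2 to 60.6 CPM in guide libraries, a log2 change of 0.71 ± 0.27 (limma, adjusted p = 0.048). The library kit keeps strand, but the strand setting of the authors' counting is not given in the sources used here, so its share in the IRF3 counts was not tested.

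The balance of IRF7 to IRF3 shifted toward IRF7 in every guide library. The log2 ratio was -3.50, -4.94 and -3.24 in controls, -1.73 and -1.62 with guide 3, and -1.32 and -1.35 with guide 5. No guide library overlapped the controls, and IRF3 reads outnumbered IRF7 reads in all 7 libraries. The difference of means was 2.39 (exact permutation test, two-sided, p = 0.0286, the smallest that 35 splits allow). Adjusted over the 3 ratios the exact permutation p was 0.0857, which is the smallest this design gives a single ratio, so missing the threshold says nothing about the size of the shift.

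**Figure D2:**
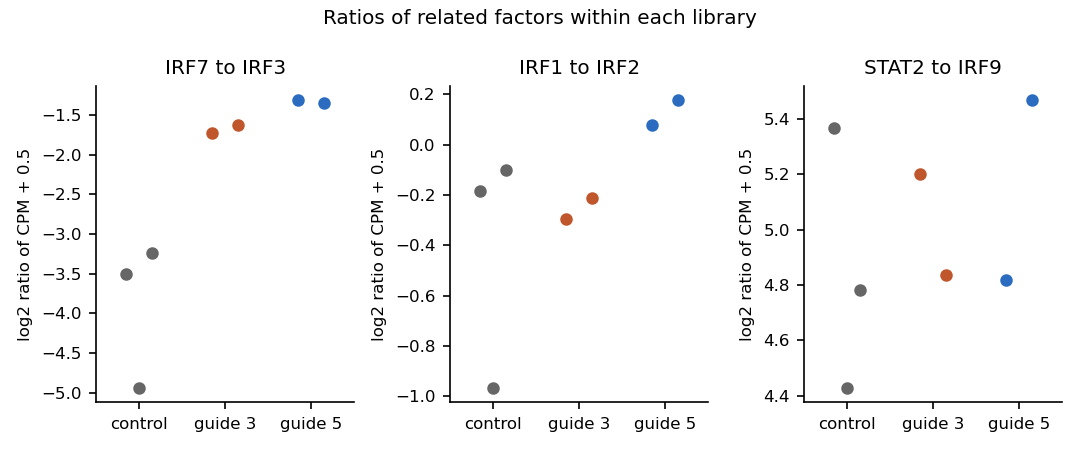
Log2 ratio of CPM + 0.5 between related factors in each library, with 1 point per library and a separate vertical axis per panel that does not start at 0. For IRF7 to IRF3 the guide libraries (-1.73 to -1.32) lie above the controls (-4.94 to -3.24), and for the other 2 ratios the groups overlap.

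IRF1, which activates antiviral and antigen presentation genes, rose moderately. IRF1 (ENSG00000125347; chr5:132481609-132490798, minus strand) measured 26.5, 27.1 and 30.0 CPM in controls, 39.2 and 40.9 CPM with guide 3, and 50.7 and 51.8 CPM with guide 5. The 3 groups were separate and tight, with guide 5 the highest. Means were 27.8 ± 1.87 (SD, n = 3) and 45.6 ± 6.48 CPM (SD, n = 4), 1.64-fold apart. This was a log2 change of 0.70 ± 0.16 (limma, adjusted p = 0.0056). It was 0.52 for guide 3 (limma, adjusted p = 0.051) and 0.87 for guide 5 (limma, adjusted p = 0.0084), and the difference between guides was 0.35 with a 95% interval of -0.12 to 0.82 (limma, adjusted p = 0.59). In the authors' deposited table guide 3 gave IRF1 a log2 fold change of 0.53 with a false discovery rate of 0.049, on the other side of the threshold. The antisense gene C5orf56 overlaps 22% of the IRF1 exons and AC116366.3 overlaps 6.01%, and neither was among the genes used.

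IRF2, which competes with IRF1 for the same elements, varied widely in the controls and was not called. IRF2 (ENSG00000168310; chr4:184387713-184474580, minus strand) measured 30.1, 53.4 and 32.1 CPM in controls, 48.3 and 47.5 CPM with guide 3, and 48.0 and 45.8 CPM with guide 5. Control replicate 2 was the highest of all 7 libraries, whereas the other controls were below every guide library. Its log2 change was 0.34 ± 0.21 with a 95% interval of -0.11 to 0.80 (limma, adjusted p = 0.20). Without control replicate 2 it was 0.60 (limma, adjusted p = 0.0034), and with the GC and length correction, for a transcript of 45.4% GC, it was 0.64 (limma, adjusted p = 0.0040). The log2 ratio of IRF1 to IRF2 overlapped between groups, at -0.97 to -0.10 in controls and -0.30 to 0.18 in guide libraries. Its difference was 0.35 (exact permutation p = 0.257, adjusted 0.386), and with the GC and length correction it was -0.049.

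IRF5, a factor downstream of Toll-like receptors that drives inflammatory cytokine genes in myeloid cells, rose by a small margin. IRF5 (ENSG00000128604; chr7:128937612-128950035, plus strand) measured 46.4, 60.8 and 59.8 CPM in controls, 92.3 and 88.9 CPM with guide 3, and 71.5 and 64.5 CPM with guide 5. The groups did not overlap, but guide 5 stood only slightly above 2 of the controls. Means were 55.7 ± 8.04 (SD, n = 3) and 79.3 ± 13.4 CPM (SD, n = 4), 1.42-fold apart. The log2 change was 0.50 ± 0.17 for both guides (limma, adjusted p = 0.032), 0.71 for guide 3 (limma, adjusted p = 0.016) and 0.29 for guide 5 (limma, adjusted p = 0.31). Between guides it differed by -0.41 with a 95% interval of -0.89 to 0.07 (limma, adjusted p = 0.54). The call for both guides was lost in 8 settings. Without control replicate 1 the change was 0.38 (limma, adjusted p = 0.12), without any 1 of the guide libraries it was 0.46 to 0.54 (limma, adjusted p = 0.073 to 0.14), and with the GC and length correction it was 0.15 (limma, adjusted p = 0.22).

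IRF8, which commits myeloid progenitors to the monocyte and dendritic cell path, gave no detectable change. IRF8 (ENSG00000140968; chr16:85898803-85922609, plus strand) measured 467, 432 and 447 CPM in controls, 467 and 497 CPM with guide 3, and 420 and 393 CPM with guide 5. Both guide 5 libraries were below every control and 1 guide 3 library was above them. Means were 449 ± 17.8 (SD, n = 3) and 444 ± 46.5 CPM (SD, n = 4). Its log2 change was -0.02 ± 0.15 (limma, adjusted p = 0.93), and its 95% interval of -0.35 to 0.31 leaves room for moderate changes in either direction. It was 0.10 with guide 3 and -0.14 with guide 5, and the guides differed by -0.24 with an interval of -0.68 to 0.19 (limma, adjusted p = 0.68).

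STAT3, the signal transducer of IL-6 and IL-10 family cytokines, was higher in every guide library but did not pass the threshold. STAT3 (ENSG00000168610; chr17:42313324-42388568, minus strand) measured 126, 163 and 136 CPM in controls, 179 and 168 CPM with guide 3, and 190 and 177 CPM with guide 5. The highest control and the lowest guide library were almost level. Means were 142 ± 19.2 (SD, n = 3) and 178 ± 8.89 CPM (SD, n = 4), 1.26-fold apart. The log2 change was 0.34 ± 0.16 with a 95% interval of -0.01 to 0.69 (limma, adjusted p = 0.108). It passed in 7 of 24 settings, among them without control replicate 2 (0.44; limma, adjusted p = 0.0094) and the GC and length correction (0.36; limma, adjusted p = 0.0048). With quantile normalization, scaling to a common sum of CPM and median of ratios it also passed, at 0.34 to 0.41 (limma, adjusted p = 0.014 to 0.029).

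**Figure D3:**
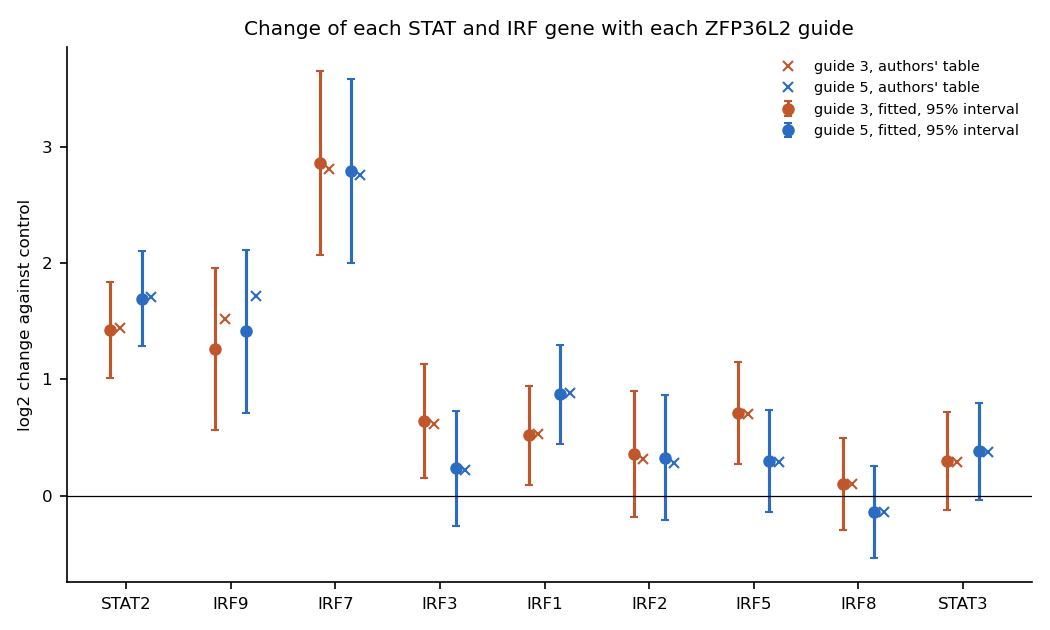
Log2 change against control for guide 3 and guide 5 (circles, with 95% intervals of the limma fit) and the log2 fold change in the authors' deposited table (crosses). The crosses lie inside the intervals for all 9 genes, and STAT2, IRF9 and IRF7 stand above 1 with both guides.

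The authors' deposited table gave close values for 8 of the 9 genes, and larger ones for IRF9 (1.52 for guide 3 and 1.72 for guide 5, against 1.26 and 1.41 here). At a false discovery rate of 0.05, the genes called higher in the authors' deposited table with guide 5 are the 4 named above, and with guide 3 they are the 5 named above and IRF1.

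Compared per kilobase of merged exons, IRF8 dominated the 9 genes in both groups. Its level was 87.0 ± 3.44 (SD, n = 3) CPM per kb in controls and 86.1 ± 9.0 (SD, n = 4) in guide libraries. In controls the order ran on with IRF3 (21.4 ± 4.66), STAT3 (16.1 ± 2.18), IRF5 (12.7 ± 1.84), IRF2 (12.4 ± 4.14), STAT2 (7.54 ± 0.177), IRF1 (3.57 ± 0.240), IRF7 (2.09 ± 1.23) and IRF9 (0.305 ± 0.136 CPM per kb). The neighbours IRF3 and STAT3, IRF5 and IRF2, and IRF1 and IRF7 overlapped over the 3 controls. In guide libraries STAT2 stood in place 3 at 22.5 ± 2.95 CPM per kb and IRF7 in place 7 at 14.4 ± 1.58, level with IRF2 at 15.2 ± 0.365. Over the 4 guide libraries STAT2 ran from 18.6 to 25.6 CPM per kb and overlapped IRF3, STAT3 and IRF5. As a share of the summed level of the 9 genes, IRF8 made up 49.1% to 58.7% in controls and 38.8% to 43.1% in guide libraries. The share of STAT2 went from 4.46% to 4.97% in controls up to 8.34% to 13.3%, and that of IRF7 from 0.574% to 2.08% up to 6.37% to 7.63%. These shares did not overlap between groups for the 3 genes. Nor did that of IRF9, at 0.111% to 0.260% in controls and 0.378% to 0.581% in guide libraries, while the shares of the remaining members overlapped. A share depends on the other members: the mean level of IRF8 itself was 449 CPM in controls and 444 CPM in guide libraries. The sum covers the 9 genes only, so no share of all genes stands beside it.

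**Figure D4:**
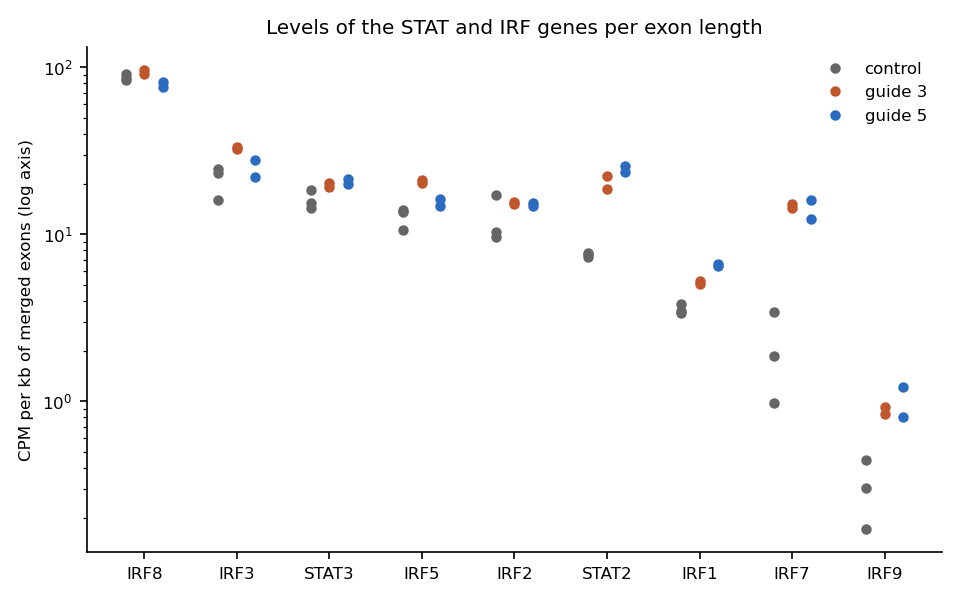
Level of each gene in CPM per kilobase of merged exons (log axis) in each library, ordered by the control mean. IRF8 lies highest in both groups and IRF9 lowest, while STAT2 and IRF7 reach the range of other members in the guide libraries. The IRF9 level is uncertain because of its overlap with AL136295.5.

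The genes around these factors were counted in lists ordered from receptor to target, with the median log2 change of all genes at -0.05 and, as above, 20.8% of all genes higher and 20.6% lower. Of 12 tested interferon and cytokine receptors and JAK kinases, 3 rose and 1 fell (median 0.19), and the share that rose is close to that of all genes. Those that rose were IL10RA, the ligand-binding chain of the IL-10 receptor (2.44), IFNGR2, a chain of the interferon gamma receptor (1.13), and TYK2, a kinase of the type I interferon receptor (0.85). The one that fell was IL6R (-0.56), the IL-6 receptor. Of 22 sensors, adaptors and kinases that act before the IRFs, 9 rose and 1 fell (median 0.42), led by the endosomal RNA receptor TLR8 (3.34), the cytosolic RNA sensor DDX58 (1.60), the adaptor TICAM1 (1.36) and the receptor chaperone UNC93B1 (1.18). Of 22 inhibitors of STAT and IRF signalling, 11 rose and 4 fell (median 0.51). The largest changes among them were in USP18 (3.02), which blocks the type I interferon receptor, IFI35 (1.91), and the JAK inhibitors SOCS3 (1.81) and SOCS1 (1.25). Each of these genes is counted again in a target list below, so the lists are not independent of each other.

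Medians were larger among known targets of the factors. The lists were chosen with earlier results of these data known, so their counts and medians are a description and not a test. Of 37 interferon-induced genes with an ISRE, known targets of the complex that holds STAT2 and IRF9, 35 rose and 0 fell (median 3.42). OAS2, which makes an activator of RNA decay, went from 0.550 ± 0.165 (SD, n = 3) to 120 ± 54.2 CPM (SD, n = 4), a log2 change of 6.72. The interferon-induced genes IFI6 (6.64), OAS3 (6.42), a relative of OAS2, and IFI27 (6.32) followed. Of 25 genes tied to IRF1 or GAS elements, 19 rose and 0 fell (median 1.03), with the guanylate-binding protein genes GBP2 (2.61) and GBP5 (2.05), APOL3 (2.40) and the transcription factor BATF2 (2.11) at the top. Their levels were low, so the 0.5 CPM added weighs on these changes. Mean CPM in control and guide libraries was 1.75 and 13.4 for GBP2, 0.537 and 3.80 for GBP5, 0.353 and 4.10 for APOL3, and 0.0136 and 1.75 for BATF2. Control means of GBP5, APOL3 and BATF2, and of OAS2, IFI27 (0.457) and USP18 (0.561) of the ISRE list, were below 1 CPM. These genes met the requirement of 1 CPM in 2 libraries through the guide libraries. They had little room to fall, so a count of 0 fallen says little for them. Of 22 known STAT3 targets, 15 rose and 0 fell (median 1.26), with CEBPB (2.60), a transcription factor of myeloid cells, BCL3 (2.56), FGL2 (2.02) and the angiogenic factor VEGFA (1.99) first. Of 23 IRF8 and PU.1 targets, 16 rose and 2 fell (median 1.03). Large rises there were those of NCF1 (4.17), a subunit of the phagocyte oxidase, the cytokine IL1B (4.14) and the chemokine receptor CX3CR1 (2.82), while IRF8 itself was not called. The myeloid marker sum given above, most of it LYZ, was also higher in the guide libraries, and its part in these counts was not tested.

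**Figure D5:**
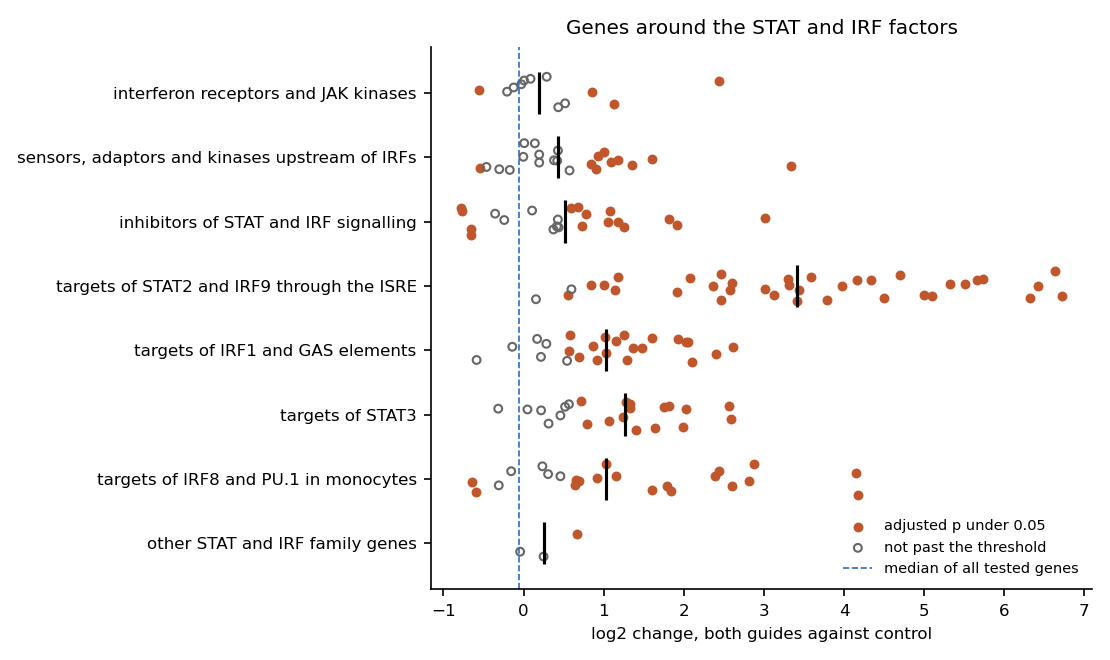
Log2 change (both guides against control) of every tested gene of each list; filled points have an adjusted p under 0.05, black bars are list medians, and the vertical position within a list is only spread for visibility. The 37 ISRE targets reach the highest values, with a median of 3.42, and the dashed line marks the median of all genes at -0.05. Lists were chosen with earlier results of these data known.

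Of 21 interferon genes on the list, 0 were among the genes tested, so their levels were not analysed here. Among the 6 other STAT and IRF family genes listed, 3 were tested. STAT6, which carries IL-4 and IL-13 signals, rose by 0.66 on the log2 scale (limma, adjusted p = 0.014). STAT5A, which carries signals of hematopoietic growth factors, had a change of 0.25 (limma, adjusted p = 0.26), and its near copy STAT5B had a change of -0.04 (limma, adjusted p = 0.84).

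The genes whose profile over the 7 libraries was most like that of each factor were found by the root mean square difference of centred log2 values, among those with a mean of at least 10 CPM. For IRF7 they were CSRNP1 (0.156) and CEBPB (0.181), against a median of 1.55 for all genes compared. For STAT2 they were the cytokine receptor gene IL31RA (0.145) and TXNIP (0.155), and for IRF9 they were CAMTA2 (0.129) and HIVEP3 (0.143). For IRF1 they were RBKS (0.102) and SMIM3 (0.113), and for IRF3 they were IPO13 (0.0684) and SNX33 (0.0689). IRF5 was closest to the glycolytic enzyme gene GAPDH (0.0631) and NIT1 (0.0643), and IRF8 to TOMM22 (0.0280) and MED18 (0.0379). STAT3 lay nearest C1RL (0.0365) and DNAJB12 (0.050), and IRF2 nearest SRGAP2 (0.0392) and TEX2 (0.0491). None of these nearest genes is a STAT or IRF gene. With only 2 genes taken per member, and IRF9 below the required 10 CPM, this does not show whether the factors moved alike.

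Genes with and without the heptamer or the GAS were among those that rose. Of the 3 genes with TATTTAT in the 3′ UTR, IRF1 and IRF5 rose and IRF8 was not called; of the other 6, STAT2, IRF7 and IRF9 rose. The 2 genes with a GAS in the promoter window, IRF1 and IRF9, both rose, as did STAT2 and IRF5 without one. STAT3, also without one, was not called. IRF8 was not called either, but only windows inside the gene were searched for it, and they held none.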

How the data were processed

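Poly(A) RNA of 7 libraries was sequenced for 50 cycles, single end, with a directional kit per the labels' protocols. The submitters' processing notes list the builds GRCh38.p7 and hg38 and the tools HTSeq, STAR 2.5.3, limma and edgeR; settings are not given in the sources used here. The authors deposited FPKM per library and, in a second table, the control mean CPM and, for each guide, a log2 fold change with its false discovery rate and p-value. The ratio of the control means of CPM and FPKM was a gene length in whole bases (within 0.01) for all 11398 genes used, within 5% of the GENCODE 29 gene span, introns included, for 10365. Deposited FPKM times this length gave CPM per library, and 100% of values were whole reads within 0.01. Of 11581 genes, 173 without FPKM and 10 with 0 in every control were left out. Reads carry no molecular identifiers, so depth covers counting error only.

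The values log2(CPM + 0.5) were modelled in R 4.3.3 by limma 3.58.1, using group means for control, guide 3 and guide 5 and moderation along a mean-variance trend (degrees of freedom 4 residual, 8.85 prior), two-sided, with Benjamini-Hochberg adjustment and a threshold of 0.05. The requirement of 1 CPM in 2 libraries removed no gene. CPM replaced FPKM because FPKM per gene span with a constant added shrinks the changes of long genes such as STAT3 and IRF2; the fit on FPKM is among the alternatives. The limma fit for both guides was tested on simulated reads with known changes and no GC trend. The ratio tests, profile distances and alternative settings were not tested in this way. Python 3.11.15, pandas 2.3.3, numpy 2.4.6, scipy 1.17.1 and matplotlib 3.10.9 were used. The members, the 14 gene lists and the tests were chosen with earlier results of these data known. Named genes are the 9 members, ZFP36L2, the 4 called genes with the largest change per list, the listed other STAT and IRF genes and the 2 nearest profiles per member; BCL2L12 and the overlapping genes were added after the overlap was seen, and 1 gene that the rule names is not reported here. Alternatives were pseudocounts of 0.1 and 1, a mean CPM of 10, other scalings, a GC and length correction, voom, library weights, other designs and leaving out each library.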

Additional observations from a re-analysis of the deposited data

How the results depend on the processing

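With both guides together, STAT2, IRF1 and IRF7 passed in all 24 settings and IRF9 in all 22 that tested it. The members risen numbered 5 with both guides, 8 with library weights, and 4 to 8 when each library was left out. They numbered 7 with quantile normalization, with scaling to a common sum of CPM and with median of ratios, where STAT3 and IRF3 were added. For guide 3 the 5 became 8 with library weights, 3 with the replicate block plus GC and length correction (STAT2, IRF2 and IRF7), and 2 to 8 when each library was left out, the lowest without guide 3 replicate 2 (STAT2 and IRF7) and the highest without control replicate 2. Without control replicate 1 or guide 3 replicate 1 it was 3 (STAT2, IRF7 and IRF9). For guide 5 the 4 became 2 to 6, the lowest without guide 5 replicate 1 (STAT2 and IRF7). Between guides, library weights called 1 member lower with guide 5, IRF5 (limma, adjusted p = 0.042). The cause of these shifts was not tested.

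IRF3 turned to -0.10 with the GC and length correction and to -0.17 with the replicate block added. IRF8, near 0, turned to 0.026 with quantile normalization, 0.042 with median of ratios, and 0.010 without control replicate 1, and to 0.003 without guide 3 replicate 1 and 0.005 without guide 5 replicate 2, in a range of -0.047 to 0.010 when each library was left out. The IRF1 to IRF2 ratio turned to -0.049 with the GC and length correction and the STAT2 to IRF9 ratio to -0.056 with 0.1 CPM added. With quantile normalization the STAT2 to IRF9 ratio (0.73) and the IRF7 to IRF3 ratio (2.21) passed the threshold. For IRF7 to IRF3 the exact permutation p before adjustment was 0.0286 in both settings, and it passed only because a further ratio also reached that minimum.

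Same-numbered libraries had correlations of deviations from group means of -0.49 to 0.37, and differently numbered libraries of -0.59 to 0.59. The 2 libraries of a guide deviate in mirror image, so every value recurs with the opposite sign, such as -0.49 and 0.49 between guides. Whether replicate numbers pair the libraries therefore cannot be decided from these values. With the replicate block the members risen stayed at 5, 5 and 4 for both guides, guide 3 and guide 5, and the genes called lower with guide 5 went from 874 to 1539. A crossed replicate block of guide 5 against guide 3, added after seeing the data, gave 16 genes higher and 2 lower, against 34 and 6.

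Over all genes, quantile normalization moved the split of higher to lower calls from 2400 and 2152 to 2339 and 3242 for guide 3, from 1379 and 874 to 1593 and 1827 for guide 5, and from 34 and 6 to 110 and 37 between guides. The fit on log2(FPKM + 0.5) with its filter gave 1525 higher and 1339 lower for both guides, against 2372 and 2352. Over all settings the calls for both guides ran from 1525 to 3329 higher and 1121 to 3363 lower, for guide 3 from 1115 to 3629 and 399 to 3242, for guide 5 from 616 to 2562 and 59 to 1868, and between guides from 8 to 904 and 1 to 1362. IRF9, with 12 to 173 reads, is the member with the fewest reads, and its overlap with the readthrough gene AL136295.5 leaves that count uncertain.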
